A study of Mus musculus with 4 samples.

Results

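The 10 genes described here are the Notch receptors Notch1, Notch2 and Notch3, the ligands Jag1 and Dll3, the fringe glycosyltransferases Lfng, Mfng and Rfng, the effector Heyl and the Hes relative Hes6. They were chosen by gene symbol as the Notch genes other than the ligands Dll1 and Jag2 and the effectors Hes1, Hes5, Hey1 and Hey2, and all 10 were present among the 23420 genes of the tables and among the 16077 genes tested. Messenger RNA was sequenced from hair cells and non-hair cells sorted from cochleae of postnatal day 1 mice of the CD1 strain that carried the Atoh1-GFP transgene. In these mice an Atoh1 enhancer drives GFP, and GFP-positive cells were sorted as hair cells. The GFP-negative non-hair cells are a mixture of supporting cells, other epithelium and surrounding tissue. The paper states that some supporting cells also carry weak GFP, namely inner phalangeal cells and possibly also border cells. It reports that a strict gate kept weakly fluorescent cells out of the hair cell sort. By its account, the sort left inner phalangeal cells out of the non-hair cells as well. Cochlear explants were kept in culture and then left without drug (control) or treated with 0.5 mM gentamicin, an aminoglycoside antibiotic that kills hair cells, for 3 h. This gave 4 groups (control hair cells, gentamicin-treated hair cells, control non-hair cells and gentamicin-treated non-hair cells) with 3 replicates in each. The study calls these biological replicates, and nothing in the labels says which animals went into which replicate, so the p-values measure the spread between these samples.

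Notch receptors are activated by ligands on neighbouring cells, after which proteases release the intracellular domain, which joins the DNA-binding protein Rbpj in the nucleus and turns on Hes and Hey repressor genes. Fringe enzymes add a sugar to the receptor in the Golgi and thereby change how strongly it answers Delta-type and Jagged-type ligands. In the cochlea, hair cells are known to present ligands to the supporting cells around them, where Notch activity holds back the hair cell fate.

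Values are normalized read scores: reads scaled for each replicate, with an offset of 1 that is also the lowest value. Reads recovered from the scores ran from 22400522 to 28152073 per replicate, and the members had between 12417 (Dll3) and 90572 (Jag1) reads over the 12 replicates. Genes met the criteria for a change by gentamicin when limma gave them a p under 0.01 before adjustment and they moved by more than 1.2-fold, the cut-offs of the study, and Benjamini-Hochberg adjusted p-values over the 16077 genes stand beside each call. The hair cell list followed the sort: its 8 markers summed to scores of 10892 to 11327 in control hair cells and 195 to 233 in control non-hair cells. No marker of any of the 8 lists of cell type markers was at the lowest score in any replicate. The 10 supporting cell markers were also found in the sorted hair cells. They summed to 1585 to 1884 in control hair cells and 1079 to 1637 in control non-hair cells. S100a1, Lgr5 and Gjb6 of that list were higher in control hair cells (log2 differences 1.94, 1.72 and 0.62). Ngfr and Cdkn1b were lower (-2.40 and -0.48), and the others did not differ at an adjusted p under 0.05. The study reports high purity of its sorted hair cells, and whether these transcripts came from other cells was not tested. In such bulk samples, fewer cells of a type and less RNA per cell cannot be told apart.

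**Figure D1:**
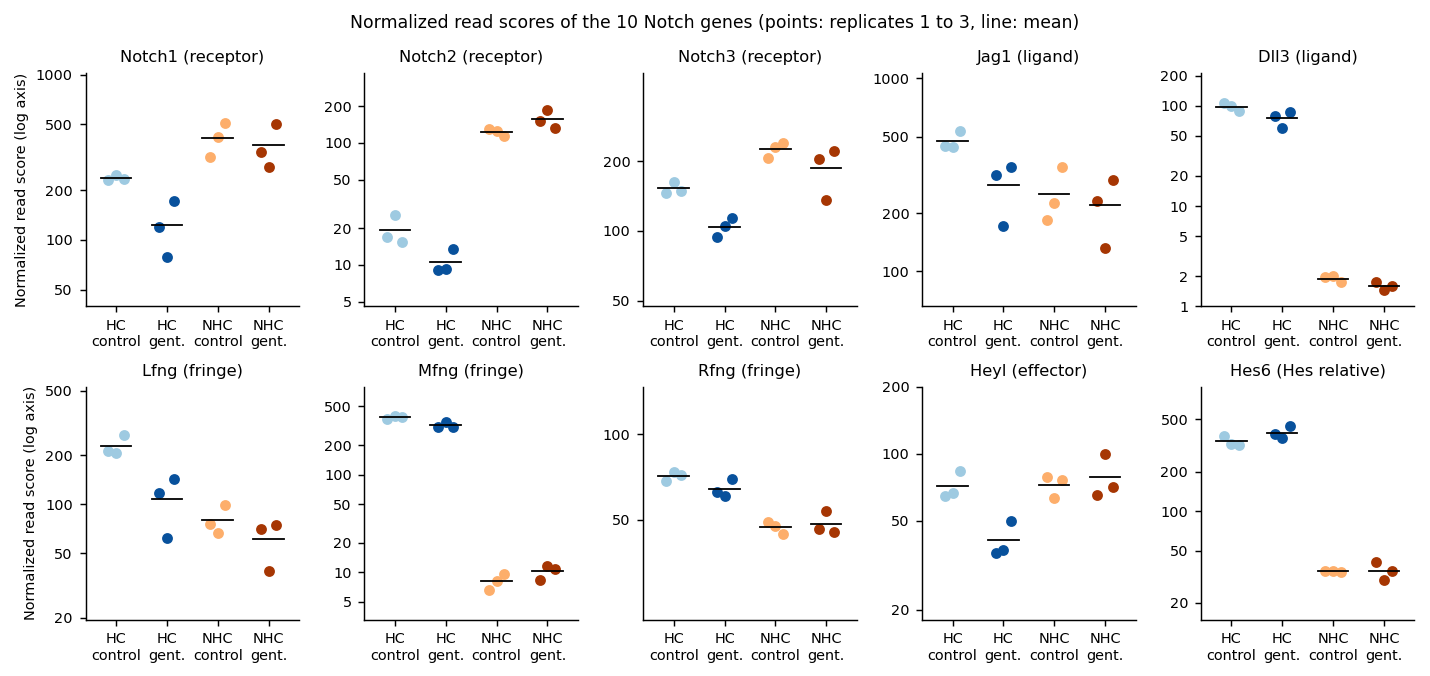
Normalized read scores of the 10 Notch genes, on a log axis, in the 12 replicates of the 4 groups (HC, hair cells; NHC, non-hair cells; gent., gentamicin). Points are replicates 1 to 3 from left to right and lines are means. Dll3, Mfng and Hes6 are far higher in hair cells, and the receptors are higher in non-hair cells. For 8 of the 10 genes, all but Rfng and Hes6, every gentamicin-treated hair cell replicate is lower than every control hair cell replicate. The replicates of these groups did not overlap for 54.8% of all tested genes.

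The first comparison asks where each gene was expressed without drug. In controls, 9 of the 10 genes differed between hair cells and non-hair cells at an adjusted p under 0.05 in limma, where 74.1% of all tested genes did. Of these, 6 were higher in hair cells (background 31.9%) and 3, the receptors, were lower in hair cells (background 42.2%). The median log2 difference was 0.78 over the members and -0.12 over all tested genes. Heyl was the exception, with means of 71.8 ± 10.3 in control hair cells and 72.9 ± 8.37 in control non-hair cells (SD, n = 3).

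Notch1 is the receptor best known for lateral inhibition in the cochlea and lies on chromosome 2 at 26457903 to 26516663, minus strand (mm10, GENCODE M21 annotation, as for all positions given here). Its scores were 229, 248 and 235 in control hair cells and 317, 420.2 and 509.8 in control non-hair cells. The groups did not overlap, and control hair cells were lower by -0.78 ± 0.28 on the log2 scale (SE; limma, Benjamini-Hochberg adjusted p = 0.0232). This call was lost without control hair cell replicate 1 (-0.76) or 3 (-0.78), or without control non-hair cell replicate 2 (-0.76) or 3 (-0.62). Notch2, a second receptor (chromosome 3, 98013527 to 98150361, plus strand), had scores of 16.9, 25.7 and 15.5 in control hair cells and 129, 125 and 113 in control non-hair cells. It showed the widest gap of the receptors, 6.46-fold lower in hair cells (log2 difference -2.69 ± 0.20 SE, limma adjusted p = 2.67e-07). Notch3, a receptor also known from the smooth muscle and pericytes of vessels (chromosome 17, 32120820 to 32166852, minus strand), had scores of 145, 163 and 149 in control hair cells and 207, 230.3 and 239 in control non-hair cells. These did not overlap either, with a log2 difference of -0.56 ± 0.15 (SE, limma adjusted p = 0.00580).

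Jag1, a Jagged-type ligand of the prosensory epithelium and supporting cells (chromosome 2, 137081456 to 137116644, minus strand), had scores of 444, 443 and 532 in control hair cells and 184, 226 and 348 in control non-hair cells. It was thus higher in the hair cell samples, by 0.95 ± 0.33 on the log2 scale (SE, limma adjusted p = 0.0214), although the call was lost without control hair cell replicate 3 (0.87) or control non-hair cell replicate 1 (0.75) or 2 (0.90). Within the non-hair cells, Jag1 and the supporting cell markers were both highest in control replicate 3 (348 and 1637) and lowest in gentamicin replicate 2 (132 and 941); the part of supporting cell content in the Jag1 difference was not tested. Dll3, a divergent Delta-type ligand known to act within the cell that makes it (chromosome 7, 28293553 to 28302238, minus strand), had scores of 106, 98.6 and 88.9 in control hair cells and 1.95, 1.99 and 1.73 in control non-hair cells. Dll3 was the member with the largest difference on the log2 scale, 51.6-fold higher in hair cells (log2 difference 5.69 ± 0.15 SE, limma adjusted p = 3.65e-11). In non-hair cells it rested on 19 to 25 reads per control replicate, close to the lowest score, and with an offset of 0.1 in place of 1 the log2 difference was 6.62.

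The fringes divided by population. Mfng (chromosome 15, 78755882 to 78773475, minus strand) had scores of 373, 399 and 385 in control hair cells and 6.54, 8.13 and 9.57 in control non-hair cells, 48.3-fold higher in hair cells (log2 difference 5.59 ± 0.14 SE, limma adjusted p = 3.12e-11). Lfng (chromosome 5, 140607320 to 140615545, plus strand) had scores of 213, 206 and 266 against 75.4, 66.1 and 99.5, which is 2.87-fold higher in hair cells (log2 difference 1.52 ± 0.31 SE, limma adjusted p = 0.000894). Rfng (chromosome 11, 120780746 to 120784207, minus strand) had the smallest gap of the fringes, with scores of 68.3, 73.6 and 71.5 against 49.1, 47.6 and 44.4 and a log2 difference of 0.60 ± 0.08 (SE, limma adjusted p = 4.22e-05). None of the fringes overlapped between the control populations. Scores are not divided by gene length, so levels of different genes were compared as the score less 1 per kilobase of transcript. On that scale Mfng made up 61.1% ± 2.68 of the fringe level in control hair cells, Lfng 29.1% ± 3.07 and Rfng 9.80% ± 0.392 (SD, n = 3). The order was different in control non-hair cells, with Lfng at 57.0% ± 5.51, Rfng at 36.7% ± 5.68 and Mfng at 6.32% ± 1.05.

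Hes6, a Hes family member that is not turned on by Notch and counteracts Hes1 (chromosome 1, 91411483 to 91414038, minus strand), had scores of 376, 326 and 318 in control hair cells and 35.0, 35.1 and 34.2 in control non-hair cells, 9.75-fold higher in hair cells (log2 difference 3.28 ± 0.12 SE, limma adjusted p = 4.78e-10). Heyl, a Hey-type repressor known as a Notch target in vessel walls (chromosome 4, 123233556 to 123249875, plus strand), had scores of 65.0, 66.7 and 83.7 against 78.9, 63.3 and 76.4. These overlapped, and the difference of -0.02 ± 0.18 had a 95% interval from -0.41 to 0.37 on the log2 scale (SE, limma adjusted p = 0.910).

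**Figure D2:**
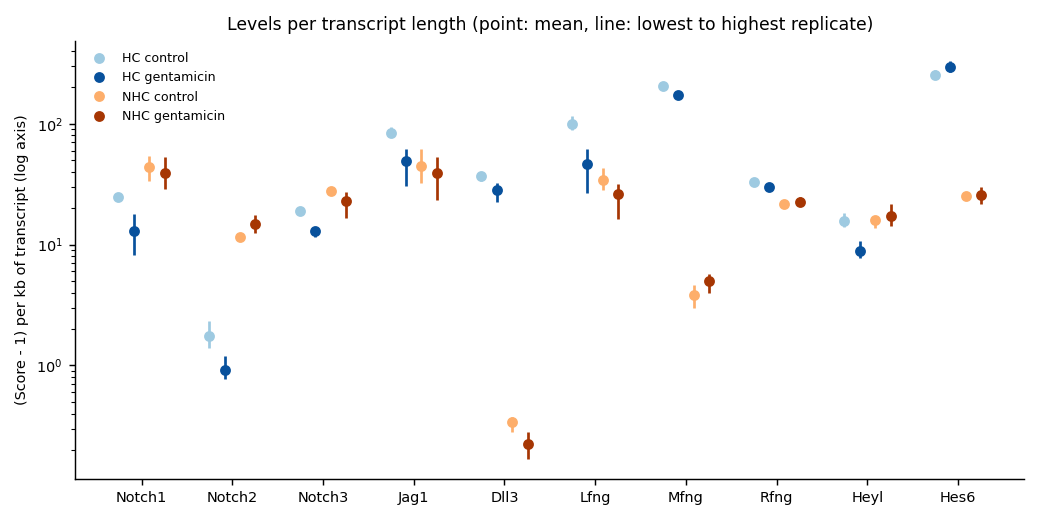
Level of each gene per kilobase of transcript (score less 1, divided by transcript length; log axis) in the 4 groups; points are means and lines span the lowest to the highest of 3 replicates. In control hair cells Hes6 and Mfng lead, at 254 and 206 per kilobase, and Notch2 is last at 1.75, whereas in control non-hair cells Jag1 and Notch1 lead at 44.8 and 43.7 and Dll3 is last at 0.341.

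Per kilobase of transcript, the order of mean levels in control hair cells was Hes6 (254), Mfng (206), Lfng (98.7), Jag1 (84.1), Dll3 (36.9), Rfng (33.1), Notch1 (24.9), Notch3 (18.9), Heyl (15.6) and Notch2 (1.75). Neighbours in that order overlapped between replicates for Lfng and Jag1, for Dll3 and Rfng, and for Notch3 and Heyl, and were apart for the other pairs. In control non-hair cells the order was Jag1 (44.8), Notch1 (43.7), Lfng (34.4), Notch3 (28.0), Hes6 (25.3), Rfng (21.7), Heyl (15.8), Notch2 (11.6), Mfng (3.80) and Dll3 (0.341). There the replicates of Jag1, Notch1, Lfng and Notch3 overlapped from neighbour to neighbour, and the rest of the order did not. Dividing by coding length instead raised the place of Heyl, which has a long untranslated part, from 9 to 5 in control hair cells and from 7 to 1 in control non-hair cells. Among the receptors, Notch1 made up 54.7% ± 0.954 of the level per kilobase in control hair cells, Notch3 41.5% ± 0.0927 and Notch2 3.81% ± 0.906 (SD, n = 3). The shares in control non-hair cells were 52.0% ± 5.12, 33.8% ± 2.21 and 14.1% ± 2.91.

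The main comparison of the study sets gentamicin-treated against control hair cells. Upon 3 h of gentamicin, Lfng and the receptors Notch1, Notch2 and Notch3 fell in hair cells together with Heyl, by 1.46-fold for Notch3 up to 2.24-fold for Lfng. These 5 of the 10 genes met the criteria, all of them lower. Over all tested genes 27.5% met them, 14.8% lower and 12.7% higher. The same 5 genes had an adjusted p under 0.05, as did 33.2% of all tested genes. The control and gentamicin replicates did not overlap for 8 of the 10 genes, where this held for 54.8% of all tested genes. The median log2 fold change was -0.68 over the 10 members and -0.09 over all tested genes, and 9 of the 10 members lay below 0.

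Among the receptors, Notch1 scores went from 229, 248 and 235 in control hair cells to 119.5, 79.1 and 171 upon gentamicin. Every treated replicate lay below every control replicate, and the log2 fold change was -1.02 ± 0.28 (SE; limma, Benjamini-Hochberg adjusted p = 0.0166). The Notch1 call was lost without control replicate 2 (-0.98) or 3 (-1.02) and without gentamicin replicate 1 (-1.03) or 2 (-0.73). Notch2 scores went from 16.9, 25.7 and 15.5 to 9.13, 9.16 and 13.5, a log2 fold change of -0.86 ± 0.20 (SE, limma adjusted p = 0.00853). The groups did not overlap and the call was kept whichever of the 6 replicates was left out (-1.05 to -0.64). The smallest of these falls, -0.64, was that without control replicate 2, which had the highest Notch2 score (25.7). Notch3 scores went from 145, 163 and 149 to 94.3, 104 and 114, a log2 fold change of -0.55 ± 0.15 (SE, limma adjusted p = 0.0186). This was the smallest of the called changes, and it was lost under scaling by total reads (-0.45) and without control replicate 2 (-0.50) or 3 (-0.57) or gentamicin replicate 1 (-0.48) or 2 (-0.55). Per kilobase of transcript, Notch1 and Notch3 then stood level at a mean of 12.9 each in gentamicin-treated hair cells, with overlapping replicates.

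Of the fringes, Lfng scores went from 213, 206 and 266 in control hair cells to 117, 62.1 and 143 upon gentamicin. This was the largest fall among the members, -1.17 ± 0.31 on the log2 scale (SE, limma adjusted p = 0.0151), with no overlap between the groups, and the call was lost without control replicate 3 (-1.05) or gentamicin replicate 2 (-0.81). Mfng scores were 373, 399 and 385 against 311, 346 and 307, with a log2 fold change of -0.26 ± 0.14 (SE, limma adjusted p = 0.173). These groups did not overlap, but the difference did not meet the criteria. It met them when the hair cell groups were fitted alone. Rfng scores were 68.3, 73.6 and 71.5 against 62.5, 60.8 and 69.5, which overlapped, with a log2 fold change of -0.15 ± 0.08 (SE, limma adjusted p = 0.190). Lfng made up 29.1% ± 3.07 of the fringe level per kilobase in control and 18.5% ± 6.63 in gentamicin-treated hair cells, and Mfng 61.1% ± 2.68 and 69.5% ± 6.96 (SD, n = 3).

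Heyl scores went from 65.0, 66.7 and 83.7 in control hair cells to 36.1, 36.9 and 50.01, a log2 fold change of -0.82 ± 0.18 with the smallest p-value of the members (SE, limma adjusted p = 0.00534). The groups did not overlap and the call was kept in each of the 6 fits with a replicate left out (-0.97 to -0.70). Hes6 scores were 376, 326 and 318 in control and 384, 358 and 445 in gentamicin-treated hair cells, which overlapped. Hes6 had the one positive log2 fold change of the 10 members, 0.22 ± 0.12 (SE, limma adjusted p = 0.168), which did not meet the criteria.

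The ligands did not meet the criteria. Jag1 scores were 444, 443 and 532 in control and 317, 173 and 347 in gentamicin-treated hair cells. Every treated replicate was below every control, but replicate 2 was far below the other two, and the log2 fold change of -0.82 ± 0.33 had an adjusted p of 0.0778 (SE, limma, Benjamini-Hochberg). Jag1 met the criteria when the hair cell groups were fitted alone (-0.82) and when replicate numbers entered as a block (-0.82). Dll3 scores were 106, 98.6 and 88.9 against 79.5, 60.0 and 86.1, with no overlap and a log2 fold change of -0.39 ± 0.15 (SE, limma adjusted p = 0.0610), and it met the criteria without gentamicin replicate 3 (-0.50).

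**Figure D3:**
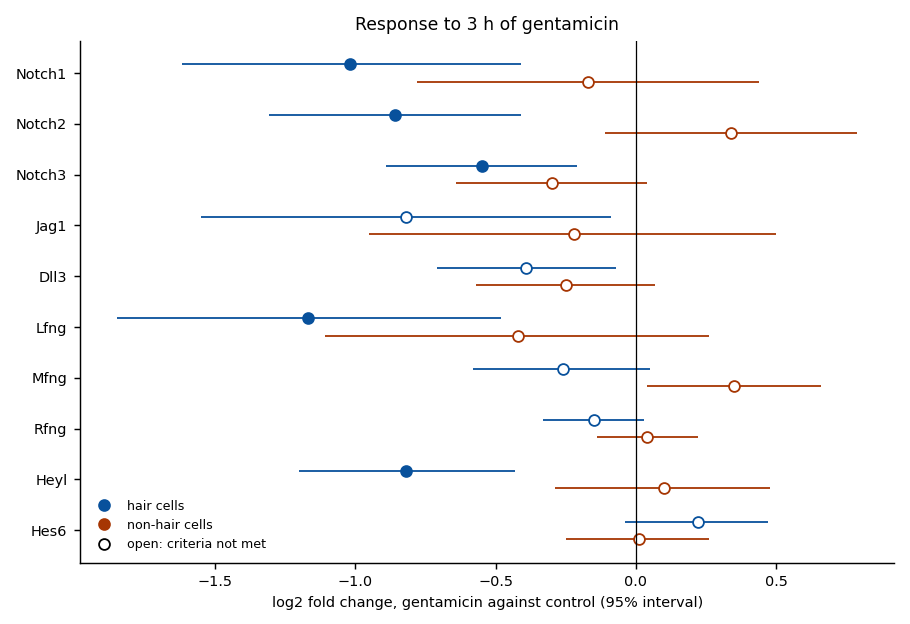
Log2 fold changes of the 10 genes upon gentamicin in hair cells (blue) and non-hair cells (brown), with 95% intervals from limma; filled points met the criteria and open points did not. In hair cells, 5 genes met the criteria, from -0.55 (Notch3) to -1.17 (Lfng), and in non-hair cells none did.

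Markers of other cell types moved in the same hair cell samples, and their part in the changes of the Notch genes was not tested. The summed score of the 10 supporting cell markers was 1585 to 1884 in control and 900.0 to 1389 in gentamicin-treated hair cells, with 2 of 10 (Gjb2 and Hes5) lower by the same criteria; Hes5 is also in the list of Notch pathway genes. Of all tested genes, 14.8% were lower in hair cells, which is the share to read these marker counts against. Gentamicin replicate 2 had the lowest supporting cell sum (900.0), and Notch1, Jag1, Lfng, Dll3, Rfng and Hes6 were lowest in that replicate too. The 8 mural cell markers summed to 40.3 to 66.5 in control and 19.8 to 26.0 in gentamicin-treated hair cells (4 of 8 lower), the 8 mesenchyme markers to 249 to 533 and 170.1 to 213 (3 of 8 lower), the 8 endothelial markers to 16.5 to 34.5 and 8.62 to 15.4 (1 of 8 lower), and the 5 Schwann cell markers to 171 to 221 and 79.2 to 143 (3 of 5 lower). None of these sums overlapped between control and gentamicin-treated hair cells. Control hair cell replicate 2 had the highest mural (66.5), mesenchyme (533), endothelial (34.5) and Schwann (221) sums of its group. It had the lowest supporting cell (1585) and hair cell (10892) sums. Notch1, Notch2, Notch3, Mfng and Rfng were highest in that replicate too, and Jag1 and Lfng were lowest. What these sums had to do with the Notch2 fall was not tested. The mural genes that met the criteria were Pdgfrb, Cspg4, Myh11 and Abcc9. Of these, Myh11 was higher in control hair cells than in control non-hair cells (log2 difference 1.45). Rgs5, Acta2, Kcnj8 and Tagln did not meet the criteria (log2 fold changes -0.10, -0.12, -0.24 and 0.30). The sum of the 8 hair cell markers did not overlap either. It was 10892 to 11327 in control and 9165 to 10265 in treated hair cells, with none of 8 meeting the criteria. Taken singly, 54.8% of all tested genes did not overlap between these groups. The sums of macrophage markers (3.36 to 4.39 and 4.12 to 5.53) and neuron markers (1035 to 1223 and 974 to 1117) overlapped, and none of these genes met the criteria. Nefm and Nefl made up most of the neuron sum, with means of 699 and 338 in control hair cells. Tubb3, Nefl and Elavl4 were lower without overlap (log2 fold changes -0.83, -0.37 and -1.21), and Nefm (0.02) and Snap25 (-0.05) overlapped. In control hair cells the mean Notch2 level was 15.1% of that in control non-hair cells. On this scale mural markers stood at 14.0%, macrophage at 11.7%, endothelial at 6.5%, mesenchyme at 5.3% and Schwann at 30.9%. The corresponding figures were 57.0% for Notch1, 67.4% for Notch3 and 98.5% for Heyl. These are above the lists just named and below the supporting cell markers at 131.6% and the neuron markers at 106.5%. In gentamicin-treated hair cells Notch2 stood at 7.9% of control non-hair cells, Notch1 at 29.5%, Notch3 at 46.0% and Heyl at 55.7%. Mural markers then stood at 6.2%, endothelial at 3.0%, mesenchyme at 2.8% and Schwann at 19.1%. Macrophage markers were at 14.5%, supporting cell markers at 91.2% and neuron markers at 98.1%.

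**Figure D4:**
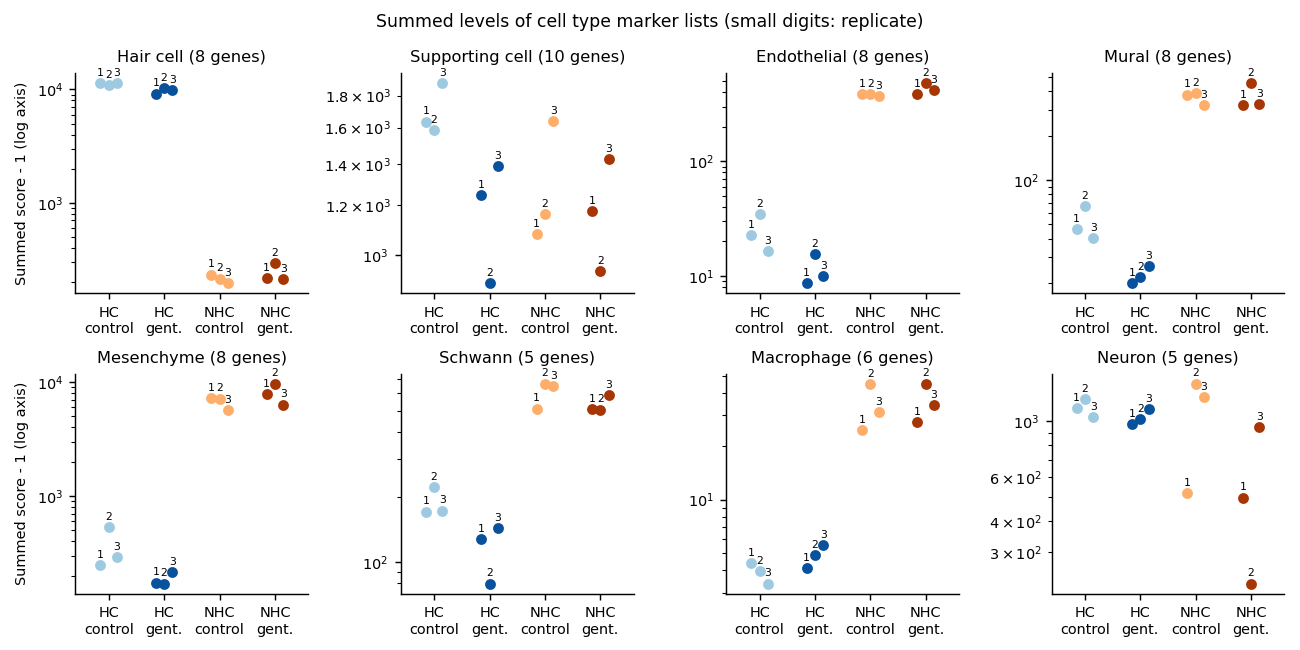
Summed score less 1 of 8 lists of cell type markers in the 12 replicates (log axis; small digits give the replicate). In hair cell samples the supporting cell, endothelial, mural, mesenchyme and Schwann sums are lower in all 3 gentamicin replicates than in all 3 controls, with supporting cell sums of 1585 to 1884 in control and 900.0 to 1389 upon gentamicin. The hair cell sum is lower in all 3 as well, at 10892 to 11327 in control and 9165 to 10265 upon gentamicin.

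The bases just before the transcription starts of the called genes are shown for those with an entry in the promoter table (RefSeq, GRCm38.p6, the same assembly as mm10). Each window holds the 250 bases before the start, 5′ to 3′ on the strand of the gene. Capitals mark matches on either strand to TGGGAA (the Rbpj core), CACNAG (the N-box bound by Hes proteins) or CACGTG (the class B E-box bound by Hes and Hey proteins). The windows are chr5:140607091-140607340 on the plus strand for Lfng, chr2:26503823-26504072 on the minus strand for Notch1, chr3:98013288-98013537 on the plus strand for Notch2 and chr17:32166891-32167140 on the minus strand for Notch3. That of Notch1 lies inside the span of the gene given above, which begins farther upstream.
Lfng: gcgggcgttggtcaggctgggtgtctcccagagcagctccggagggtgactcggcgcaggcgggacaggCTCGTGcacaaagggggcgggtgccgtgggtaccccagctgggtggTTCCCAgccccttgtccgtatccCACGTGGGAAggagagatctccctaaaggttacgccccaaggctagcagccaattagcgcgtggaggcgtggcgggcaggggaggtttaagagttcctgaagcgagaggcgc
Notch1: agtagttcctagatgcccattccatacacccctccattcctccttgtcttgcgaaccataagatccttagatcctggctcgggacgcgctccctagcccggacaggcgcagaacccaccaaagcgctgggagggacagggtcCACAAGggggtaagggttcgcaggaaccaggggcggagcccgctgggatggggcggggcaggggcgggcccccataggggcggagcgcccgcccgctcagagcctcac
Notch2: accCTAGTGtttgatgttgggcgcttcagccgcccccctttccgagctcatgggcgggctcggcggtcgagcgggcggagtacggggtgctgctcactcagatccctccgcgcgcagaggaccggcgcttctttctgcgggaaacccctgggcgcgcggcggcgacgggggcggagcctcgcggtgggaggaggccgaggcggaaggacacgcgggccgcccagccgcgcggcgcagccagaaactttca
Notch3: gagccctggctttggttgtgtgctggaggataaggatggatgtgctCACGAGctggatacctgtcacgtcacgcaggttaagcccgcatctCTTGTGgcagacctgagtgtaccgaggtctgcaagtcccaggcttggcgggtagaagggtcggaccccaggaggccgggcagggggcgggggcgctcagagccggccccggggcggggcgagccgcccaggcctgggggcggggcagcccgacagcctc
Of the 9 windows of the 8 members in the table (Heyl and Mfng have no entry), that of Lfng was the only one with the Rbpj core, and 21.6% of all 32851 windows hold it. It held it on both strands, from 135 bases before the start as TTCCCA and from 108 bases before it as TGGGAA, the latter overlapping a CACGTG from 112 bases before the start, which 6.02% of all windows hold. The N-box, found in 36.7% of all windows, was in the windows of Notch1, Notch2, Notch3, Lfng and Rfng and in 1 of the 2 windows of Hes6. These matches describe the letters and say nothing of binding.

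The same treatment was compared in non-hair cells. There 0 of the 10 genes met the criteria in limma, where 5.44% of all tested genes did, 3.18% higher and 2.26% lower, and 1 of the 10 had an unadjusted p under 0.05. That gene was Mfng, with scores of 6.54, 8.13 and 9.57 in control and 8.38, 11.6 and 10.8 in gentamicin-treated non-hair cells, which overlapped. Its log2 fold change of 0.35 ± 0.14 (SE, limma adjusted p = 0.242) met the criteria without control replicate 3 (0.48) or gentamicin replicate 1 (0.49). The replicates were apart for 1 gene, Notch2, as for 17.8% of all tested genes: its scores were 129, 125 and 113 in control and 151, 186 and 133 upon gentamicin, a log2 fold change of 0.34 ± 0.20 (SE, limma adjusted p = 0.415).

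For the other receptors, Notch1 scores were 317, 420.2 and 509.8 in control and 342, 277 and 506 in gentamicin-treated non-hair cells, and Notch3 scores were 207, 230.3 and 239 against 204, 135 and 220.4. Both overlapped, with log2 fold changes of -0.17 ± 0.28 and -0.30 ± 0.15 (SE). Lfng (75.4, 66.1 and 99.5 against 70.7, 38.8 and 74.8) and Jag1 (184, 226 and 348 against 232, 132 and 297) spread widely within each group, with log2 fold changes of -0.42 ± 0.31 and -0.22 ± 0.33 (SE). Their 95% intervals, -1.11 to 0.26 for Lfng and -0.95 to 0.50 for Jag1, cover sizeable falls as well as no change. Heyl (78.9, 63.3 and 76.4 against 65.6, 100.2 and 70.8), Rfng (49.1, 47.6 and 44.4 against 46.2, 53.7 and 45.3), Hes6 (35.0, 35.1 and 34.2 against 40.7, 29.7 and 35.2) and Dll3 (1.95, 1.99 and 1.73 against 1.73, 1.44 and 1.60) had log2 fold changes from -0.25 for Dll3 to 0.10 for Heyl. Non-hair cell gentamicin replicate 2 was the lowest of its group for Notch1, Notch3, Jag1, Dll3, Lfng and Hes6 and the highest for Notch2, Mfng, Rfng and Heyl, and it also had the lowest supporting cell sum (941) and neuron sum (225) and the highest mesenchyme sum (9728) of its group; their part in these values was not tested.

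Whether a gene answered differently in the populations was tested as the difference between the log2 fold changes (hair cells less non-hair cells). It passed an adjusted p under 0.05 in limma for 2 of the 10 genes, Notch2 and Heyl, where 13.4% of all tested genes passed. For Notch2 the difference was -1.20 ± 0.29 (SE, limma adjusted p = 0.0213), and it was lost without hair cell gentamicin replicate 2 (-1.11) out of 12 fits that each left out a replicate. For Heyl it was -0.91 ± 0.25 (SE, limma adjusted p = 0.0356), and it was kept in 4 of the 12 such fits (-1.06 to -0.73). Mfng, which was lower in hair cells and higher in non-hair cells upon gentamicin, had a difference of -0.62 ± 0.20 (SE, limma adjusted p = 0.0648), and passed with the replicate number as a block (-0.62). For Notch1 (-0.85, 95% interval -1.71 to 0.01), Lfng (-0.74, -1.71 to 0.22), Jag1 (-0.60, -1.63 to 0.43) and Notch3 (-0.25, -0.73 to 0.23) a different response was not shown. The median difference was -0.61 over the members and -0.07 over all tested genes.

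The other genes of the pathway were taken from a list of 59 genes by role, of which 58 were in the tables and 56 were tested. In hair cells, 27 of the 56 (48.2%) met the criteria upon gentamicin, 22 lower and 5 higher, where 27.5% of all tested genes met them, 14.8% lower and 12.7% higher. Their median log2 fold change was -0.26 against -0.09 over all genes. By role, genes of endocytosis and degradation of receptor and ligand had 9 lower and 1 higher of 15, the nuclear complex 5 lower and 3 higher of 14, the other receptor and ligands 2 lower and 1 higher of 7, glycosylation 2 lower of 5, and the cleavage enzymes 1 lower of 10. Of the 5 tested effectors, 3 were lower. The largest falls were those of Hes5 (scores 62.4, 58.6 and 96.2 in control and 13.4, 13.3 and 29.4 upon gentamicin), a Notch effector of supporting cells, of Nrarp (52.6, 55.5 and 64.5 against 20.8, 17.1 and 25.7), a Notch target that limits the pathway, and of Hes1 (30.3, 30.5 and 55.1 against 14.2, 16.8 and 13.0), another effector. None of them overlapped, with log2 fold changes of -2.02 ± 0.42, -1.45 ± 0.23 and -1.34 ± 0.28 (SE, limma adjusted p = 0.00424, 0.000826 and 0.00458). The largest rises were those of the ligand Dll4 (129.6, 142 and 129 against 219, 278 and 255; log2 fold change 0.90 ± 0.22 SE, limma adjusted p = 0.00978), of Itch, an E3 ubiquitin ligase (73.0, 79.1 and 77.4 against 98.5, 106 and 102; 0.42 ± 0.06 SE, limma adjusted p = 0.000529), and of Ep300, a histone acetyltransferase (166, 159 and 157 against 189, 225 and 230.5; 0.41 ± 0.08 SE, limma adjusted p = 0.00235).

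In non-hair cells 6 of the 56 (10.7%) met the criteria, 4 lower and 2 higher, where 5.44% of all tested genes met them, 2.26% lower and 3.18% higher. Dll4 was higher here too, from 23.1, 35.9 and 40.1 in control to 48.9, 55.8 and 85.7 (log2 fold change 0.94 ± 0.22 SE, limma adjusted p = 0.0861), as was Hdac1, a histone deacetylase (120.1, 98.4 and 116 against 133, 139.6 and 140.5; 0.31 ± 0.08 SE, limma adjusted p = 0.104). The lower genes with the largest changes were Nrarp (46.0, 49.8 and 71.6 against 33.4, 25.1 and 45.4; -0.70 ± 0.23 SE, limma adjusted p = 0.164), the ligand Dll1 (5.01, 7.69 and 6.83 against 3.55, 3.47 and 5.67; -0.64 ± 0.20 SE, limma adjusted p = 0.149) and Dtx3, a Deltex-type ubiquitin ligase (255, 290.4 and 255 against 192, 183 and 205; -0.46 ± 0.07 SE, limma adjusted p = 0.0327). Of the genes named here in non-hair cells, Dtx3 was the one with an adjusted p under 0.05. The difference between the responses passed an adjusted p under 0.05 for 8 of the 56 genes (14.3%), close to the 13.4% of all tested genes.

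**Figure D5:**
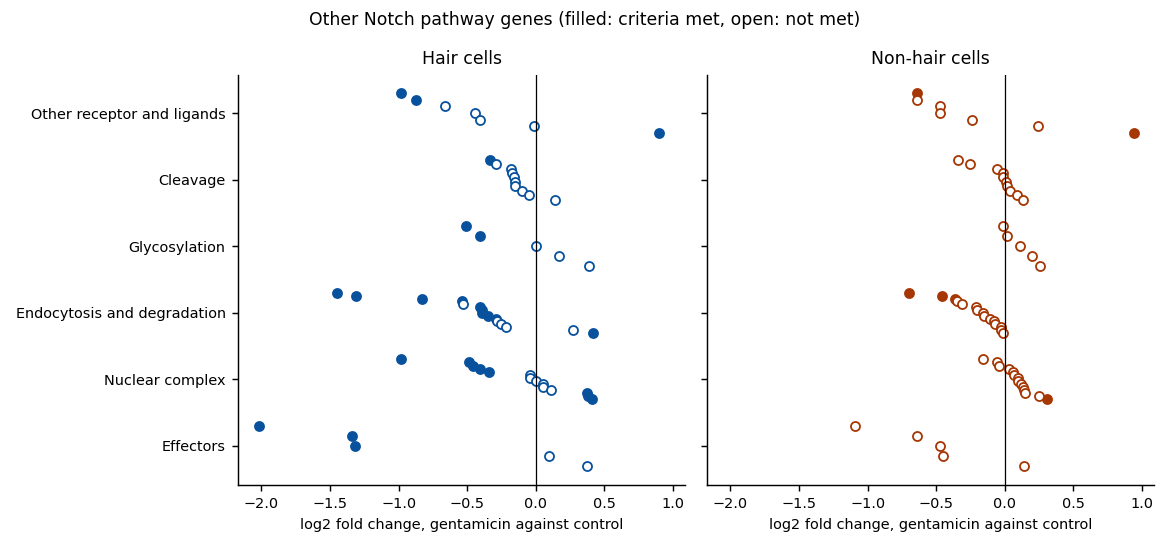
Log2 fold changes upon gentamicin of the 56 other tested Notch pathway genes by role, in hair cells (left) and non-hair cells (right) on the same axis; filled points met the criteria. In hair cells 22 genes were lower and 5 higher, with Hes5 farthest to the left at -2.02 and Dll4 farthest to the right at 0.90, and in non-hair cells 4 were lower and 2 higher.

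The genes whose pattern was most like the members were found by Pearson's r of log2 scores over the 12 replicates, among 13820 genes with a mean score of at least 5 in a group. Since the 12 replicates fall into 2 populations, these values mostly describe the gap between them. For 9 of the members, the closest genes were Nav2 (0.992) for Notch1, Zfp704 (0.998) for Notch2, Ace (0.986) for Notch3, Scrn1 (0.992) for Jag1, 1700007K13Rik (0.999) for Dll3, Nr2f1 (0.975) for Lfng, Tnc (0.979) for Rfng, Cdk10 (0.955) for Heyl and Card10 (0.998) for Hes6. The next in order were Fam102a and Ppm1l for Notch1, Metrn and Arhgap23 for Notch2, Camsap2 and Ttc9 for Notch3, Gpr126 and Kremen1 for Jag1, and Fzd3 and Anxa5 for Lfng. Among the members themselves, deviations of the log2 scores from the group means went together most closely for Jag1 and Lfng (r = 0.93 over the 12 replicates), Jag1 and Notch1 (0.91) and Notch1 and Lfng (0.83). Notch2 and Jag1 did not share this pattern (-0.23). These 12 values share their libraries and the make-up of each sorted sample.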

How the data were processed

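Messenger RNA-seq libraries of 50 bp single-end reads were made by the authors from sorted cochlear cells, trimmed by quality and aligned to mm10 with TopHat 2 in PartekFlow. The authors deposited a normalized read score for each of 23420 genes in 3 replicate columns per group. RPKM is named in the methods, yet gene length had not been divided out of these values. The scaling factor is not given in the sources used here. Less the offset of 1 and divided by the smallest step, 73.8 to 75.4% of low values came within 0.02 of a whole number. This was too few to treat them as counts in the main fit. The recovered reads (22400522 to 28152073 per replicate) served for a filter of at least 100 reads, which left 16077 genes. They also entered the alternative scalings (TMM and by total reads) and the statements of depth.

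Log2 scores of all 4 groups were fitted in 1 model in limma 3.58.1 (R 4.3.3) with a variance trend and empirical Bayes, two-sided, and p-values were adjusted by Benjamini-Hochberg over the genes tested. A response to gentamicin was called where p before adjustment was under 0.01 and the change exceeded 1.2-fold, the other comparisons at an adjusted p under 0.05. Tables were made in Python 3.11.15. The procedure was tested on simulated data. The members and gene lists were chosen with earlier results of these data known. Every member is named, and from the other pathway genes the 3 largest called changes per direction with a mean score of at least 5. Replicate numbers pair samples where every same-numbered pair of deviations from the group means correlates above 0.1. This held for the control populations (0.216, 0.316 and 0.200), where the block changed no call, and not for gentamicin in hair cells (0.0369, 0.0523 and 0.0369) or non-hair cells (0.208, -0.232 and 0.683). Transcript lengths and positions came from GENCODE M21. Alternatives in scaling, offset, filter, call rule, samples and left-out replicates are given in the closing section. The column names give no animal, lane or batch.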

Additional observations from a re-analysis of the deposited data

Results flagged for a closer look

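Notch2 and Heyl were flagged because their responses to gentamicin differed between hair cells and non-hair cells in the test of the difference itself. The difference between the log2 fold changes was -1.20 for Notch2 (limma, Benjamini-Hochberg adjusted p = 0.0213) and -0.91 for Heyl (limma, Benjamini-Hochberg adjusted p = 0.0356). Of all tested genes, 13.4% passed this test. When a replicate was left out, the call was kept in 11 of 12 fits for Notch2 and in 4 of 12 for Heyl. Notch2 was lower in 3 of 3 treated hair cell replicates than in every control replicate and higher in 3 of 3 treated non-hair cell replicates. Replicates did not overlap for 54.8% of all tested genes in hair cells and 17.8% in non-hair cells. The Notch2 rise in non-hair cells did not meet the criteria (log2 fold change 0.34, limma adjusted p = 0.415).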

How the results depend on the processing

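In hair cells, the number of members called upon gentamicin was 5 and ranged from 2 to 6 when a replicate was left out, with Notch2 and Heyl called in each of the 6 fits. In non-hair cells the number was 0, and 0 to 1 when a replicate was left out. For the difference between the responses the number was 2; it was 1 without a read minimum, 0 at an adjusted p under 0.01, and 0 to 3 when a replicate was left out. Notch1 made up 56.3% of the receptors per coding length in control hair cells in place of 54.7% per transcript length. Signs turned for genes that were not called. In non-hair cells upon gentamicin, leaving out a replicate gave ranges of -0.41 to 0.03 for Notch1, -0.48 to 0.11 for Jag1, -0.04 to 0.08 for Rfng, -0.09 to 0.22 for Heyl and -0.11 to 0.12 for Hes6. For Dll3 the difference between the responses was 0.14 with an offset of 0.1 and -0.25 to 0.02 with a replicate left out. For Heyl the difference between the control populations was 0.07 under TMM scaling and -0.14 to 0.04 with a replicate left out. The causes were not tested. The numbers did not pair control with gentamicin samples in hair cells or in non-hair cells. Pairing of treated hair cells with treated non-hair cells was not checked. With the replicate block, Jag1 was also called in hair cells (-0.82) and Mfng in the difference between the responses (-0.62), and no other call changed. Scaling by total reads moved the median of all genes in hair cells from -0.086 to -0.013. Dll3 in non-hair cells is limited by depth, at 12 to 25 reads per replicate.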
